A study of Mus musculus with 9 samples.

Results

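The genes described here encode the protein subunits of the mitochondrial ribosome. They were chosen by symbol alone, as every symbol that reads Mrpl or Mrps followed by a number and at most 1 small letter and that was above 0 FPKM in all 9 libraries. All 77 symbols that match met the second condition, 48 of them named for the large subunit (Mrpl) and 29 for the small subunit (Mrps). They are 77 of 14675 genes above 0 in every library, out of 24356 symbols listed.

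RNA was sequenced from brown adipose tissue (BAT) of 9 mice, and each library is 1 animal, numbered in its label. GHRH-KO mice (growth hormone releasing hormone knock-out, a germline deletion present in every cell of the animal) gave 2 female and 2 male libraries. Their wild-type (WT) littermates gave 3 female and 2 male libraries. All animals shared a mixed C57BL6 and 129SV background, and ate chow freely, no treatment is stated, and their age is not given in the sources used here.

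Mitochondrial ribosomes translate the few proteins that mitochondrial DNA encodes, all of them subunits of the respiratory chain and ATP synthase. Every protein of this ribosome is encoded in the nucleus, made in the cytosol and imported, so that its supply has to be matched with ribosomal RNA transcribed inside the organelle. The small subunit binds and decodes the message and the large subunit joins the amino acids. Brown fat is rich in mitochondria and uses their respiratory chain for heat.

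Gene expression is given as FPKM, fragments scaled by the length of the transcript and the size of the library. The sum of FPKM ran from 380558 to 443569 per library, and the number of fragments behind it is unknown here. Ghrh, the targeted gene, was above 0 only in libraries labelled KO, at 0.233 to 0.846 FPKM in the 4 of them. The 5 labelled WT listed it at 0. The source of these reads was not tested, nor was the genotype behind the labels. Igf1, a target of growth hormone, was lower on average in libraries labelled KO, at 1.33 ± 0.78 FPKM (SD, n = 4) against 4.80 ± 2.66 FPKM (n = 5), with overlap and without passing (log2 difference -1.84, SE 0.45, limma adjusted p = 0.0661). Every direction below is that of libraries by their label. The brown fat marker Ucp1 was at 2160 to 2990 FPKM in libraries labelled KO and 1360 to 2320 FPKM in those labelled WT. Most of the brown adipocyte markers went the other way. Of all 9, with Ucp1 among them, 3 had a log2 difference above 0 over both sexes (median -0.13). KO male 1 stood apart, with a summed level of 10 lymphocyte markers of 259 FPKM against 2.19 to 5.31 FPKM in the other libraries. The summed level of 10 skeletal muscle markers was 2390 to 10800 FPKM in libraries labelled KO and 387 to 2050 FPKM in those labelled WT, without overlap, with all 10 markers above 0 in every library. The part of either tissue in the differences below was not tested. In a bulk sample, fewer cells of a type and less RNA per cell cannot be told apart.

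The stretches around the start sites of these genes are shown first, since they are the regulatory sequence that the members can be compared on. Positions are those of GRCm38.p6, and each promoter is 300 bases, 250 before the start and 50 after it, as given by RefSeq. Of the 77 genes, 68 matched the table, with 74 promoters, and Mrpl13, Mrpl15, Mrpl19, Mrpl38, Mrpl4, Mrpl54, Mrps28, Mrps34 and Mrps35 were not in it. The first 2 promoters belong to the members called lower in libraries labelled KO, Mrps6 (chr16:92058086-92058385, plus strand) and Mrpl30 (chr1:37890227-37890526, plus strand). The third belongs to Mrps27 (chr13:99344536-99344835, plus strand), the member with the largest positive difference, and the fourth to Mrpl22 (chr11:58171414-58171713, plus strand), shown after its values were seen because it holds matches to 2 motifs. Capitals mark matches to NRF1 (GCGCATGCG), GABPA (CCGGAAG, an ETS motif) or YY1 (AAGATGGCG) on either strand. These are factors long known to act on nuclear genes for mitochondrial proteins.
Mrps6: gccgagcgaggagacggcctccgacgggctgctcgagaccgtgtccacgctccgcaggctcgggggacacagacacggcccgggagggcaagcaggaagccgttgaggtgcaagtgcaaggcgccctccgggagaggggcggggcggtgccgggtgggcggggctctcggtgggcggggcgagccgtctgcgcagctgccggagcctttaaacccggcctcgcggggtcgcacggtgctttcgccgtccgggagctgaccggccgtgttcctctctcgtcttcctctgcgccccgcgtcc
Mrpl30: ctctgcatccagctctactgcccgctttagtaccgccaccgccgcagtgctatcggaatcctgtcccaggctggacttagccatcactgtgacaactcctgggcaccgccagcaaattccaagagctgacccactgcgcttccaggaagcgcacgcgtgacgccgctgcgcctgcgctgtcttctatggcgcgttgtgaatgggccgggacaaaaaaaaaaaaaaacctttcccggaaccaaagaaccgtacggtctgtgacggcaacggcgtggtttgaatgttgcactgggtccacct
Mrps27: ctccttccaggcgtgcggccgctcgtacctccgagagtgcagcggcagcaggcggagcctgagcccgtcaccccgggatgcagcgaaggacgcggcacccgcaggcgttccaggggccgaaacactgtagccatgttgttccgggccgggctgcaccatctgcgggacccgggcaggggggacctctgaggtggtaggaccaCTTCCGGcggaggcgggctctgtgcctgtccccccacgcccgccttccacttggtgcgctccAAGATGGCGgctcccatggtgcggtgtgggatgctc
Mrpl22: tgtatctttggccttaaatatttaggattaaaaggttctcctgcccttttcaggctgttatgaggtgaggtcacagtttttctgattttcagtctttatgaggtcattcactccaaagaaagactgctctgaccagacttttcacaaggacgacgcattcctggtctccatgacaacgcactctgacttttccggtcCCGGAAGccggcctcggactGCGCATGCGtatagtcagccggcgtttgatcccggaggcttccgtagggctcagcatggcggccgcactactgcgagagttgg

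No capital stands in the Mrps6 and Mrpl30 promoters, which says only that these letters are not in these windows. The Mrps27 promoter holds a GABPA match that begins 48 bases before the start and a YY1 match that begins 14 bases after it. In the Mrpl22 promoter the GABPA match begins 53 bases and the NRF1 match 33 bases before the start. Over the 74 member promoters, 33.8% held the GABPA letters, against 8.86% of 32851 promoters of all genes. The YY1 letters were in 10.8% against 1.40%, and the NRF1 letters, which overlap their own reverse complement, in 9.5% against 1.75%. At least 1 of these 3 was in 47.3% of member promoters (35 genes) against 11.36% of all. The shares lay closer together for the NF-Y letters CCAAT (40.5% against 37.41%) and the E-box CACGTG (9.5% against 7.15%). The SP1 letters GGGCGG were in 52.7% against 35.66%, and TATAAA was less frequent, in 6.8% against 13.62%. Member promoters had a median GC content of 58.5%, against 52.7% over all promoters. Of genes with a large subunit symbol, 14 of 42 held the GABPA letters, and of those with a small subunit symbol, 11 of 26. These shares are descriptions and no test was made of them.

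**Figure D1:**
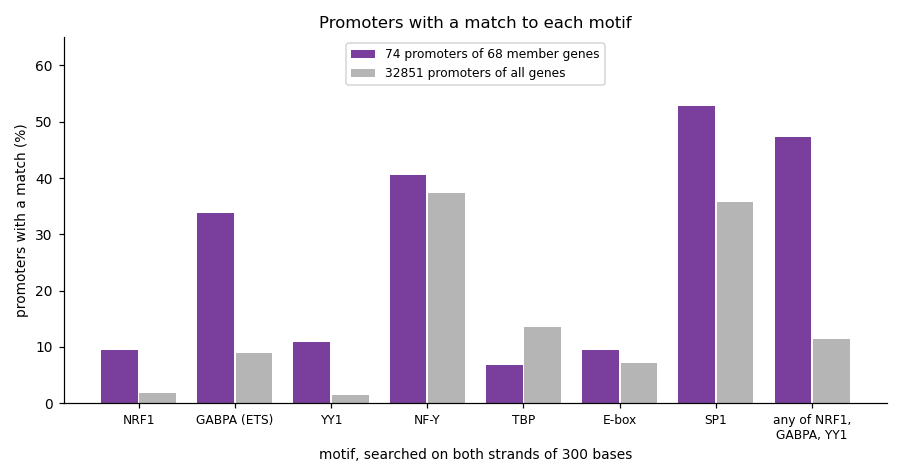
Percentage of promoters (y axis) with at least 1 match to each motif (x axis), for 74 promoters of member genes (purple bars) and 32851 promoters of all genes (grey bars). The bars stand furthest apart for GABPA (33.8% against 8.86%) and for any of NRF1, GABPA and YY1 (47.3% against 11.36%).

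The genes lie on 17 chromosomes, with 10 of them on chromosome 11 and 0 on chromosome X (GENCODE M21, GRCm38). A neighbouring gene that starts on the opposite strand within 1000 bases was found for 33 of 77 members (42.9%) and for 2028 of 13383 tested protein-coding genes (15.2%). Several of these partners are mitochondrial themselves. Mrpl46 and Mrps11 start head to head, as do Mrps12 and Sars2 (a mitochondrial seryl-tRNA synthetase), Mrpl43 and Peo1 (the helicase of mitochondrial DNA), Mrpl36 and Ndufs6, and Mrpl47 and Ndufb5, the last 2 partners being proteins of complex I. These pairs were picked after their annotation was seen.

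Values of some members may include reads of other loci. Exons of 4 members overlap those of another listed gene on the same strand, among them 159 bases that Mrps6 shares with Slc5a3, and 20 members overlap a gene on the opposite strand, which cannot be told apart where reads were counted without strand. Over 10% of all stretches of 50 bases, the length of 1 read, recurred in another gene for 15 members, mostly in processed pseudogenes, and 36 members shared none. All stretches of Mrpl53 recurred, and Mrpl23 shared 51.7%, Mrps36 33.7%, Mrpl22 33.4%, Mrpl27 32.4%, Mrps6 32.2%, Mrpl33 30.3% and Mrps18b 27.2%. Mrpl42, Mrps10, Mrps18c, Mrps33, Mrps5, Mrps21 and Mrpl41 shared 11.3% to 16.6%, and the levels of all 15 are uncertain.

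As a set, the 77 genes were expressed well above the typical gene. Their median of mean FPKM was 42.1 (range 4.94 to 228), against 3.65 over all 14675 genes, and all 77 lay above the latter. Together they made up 0.927% to 1.163% of the summed FPKM of a library. Large and small subunits were expressed at similar levels, with medians of 40.9 and 44.8 FPKM. The difference of the 2 medians, large minus small on the log2 scale, was below 0 in all 9 libraries but ran only from -0.25 to -0.02. It changed little when the genes were sorted by structure, since Mrps30 and Mrps18a encode proteins of the large subunit and Mrps36 a protein now known from the 2-oxoglutarate dehydrogenase complex (40.9 FPKM over 50 genes against 43.5 over 26). Sorted by symbol (48 and 29 genes), the ratio of summed large to summed small subunit FPKM was 1.61 to 1.69 in every library. This ratio depends on the sorting, unlike the medians. The summed mean FPKM was 2764 and 1674 by symbol, and 2872 and 1347 by structure.

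Each subunit is built from 1 copy of most of its proteins, but transcript levels spanned 46.1-fold between the highest and the lowest gene of the large subunit and 25.6-fold in the small subunit. Mrpl34, a short protein conserved from bacteria, was highest at 228 ± 22.0 FPKM (SD, n = 9), followed by Mrpl42 (223 ± 16.8 FPKM) and, in the small subunit, by Mrps21 (221 ± 20.6 FPKM). The dehydrogenase protein Mrps36 stood at 220 ± 21.4 FPKM. These 4 means differ by less than the spread between libraries. Mrpl42, Mrps21 and Mrps36 also share sequence with other genes, so their levels are uncertain. Mrpl12, a protein of the stalk that recruits translation factors, was next at 191 ± 13.0 FPKM, and Mrps16 was the third of the small subunit symbols at 101 ± 12.1 FPKM.

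At the lower end were Mrpl19 (4.94 ± 0.42 FPKM), Mrpl57 (8.03 ± 0.69) and Mrpl17 (8.21 ± 0.77) of the large subunit, and Mrps25 (8.62 ± 0.49), Mrps14 (15.9 ± 1.84) and Mrps11 (17.0 ± 0.97) of the small subunit, all in FPKM with SD over 9 libraries. Of the 3 proteins related to bacterial S18, Mrps18a stood at 79.3 ± 9.03, Mrps18b at 72.3 ± 4.95 and Mrps18c at 44.8 ± 4.02 FPKM. Mrps18b and Mrps18c share sequence with other genes, so their levels are uncertain. Mrps30 stood at 28.6 ± 1.55 FPKM. Over the 77 genes, mean FPKM was lower where the longest annotated mRNA was longer, with a Spearman rho of -0.54 across genes, which are not independent replicates. FPKM divides by transcript length, so the scale itself enters this value.

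**Figure D2:**
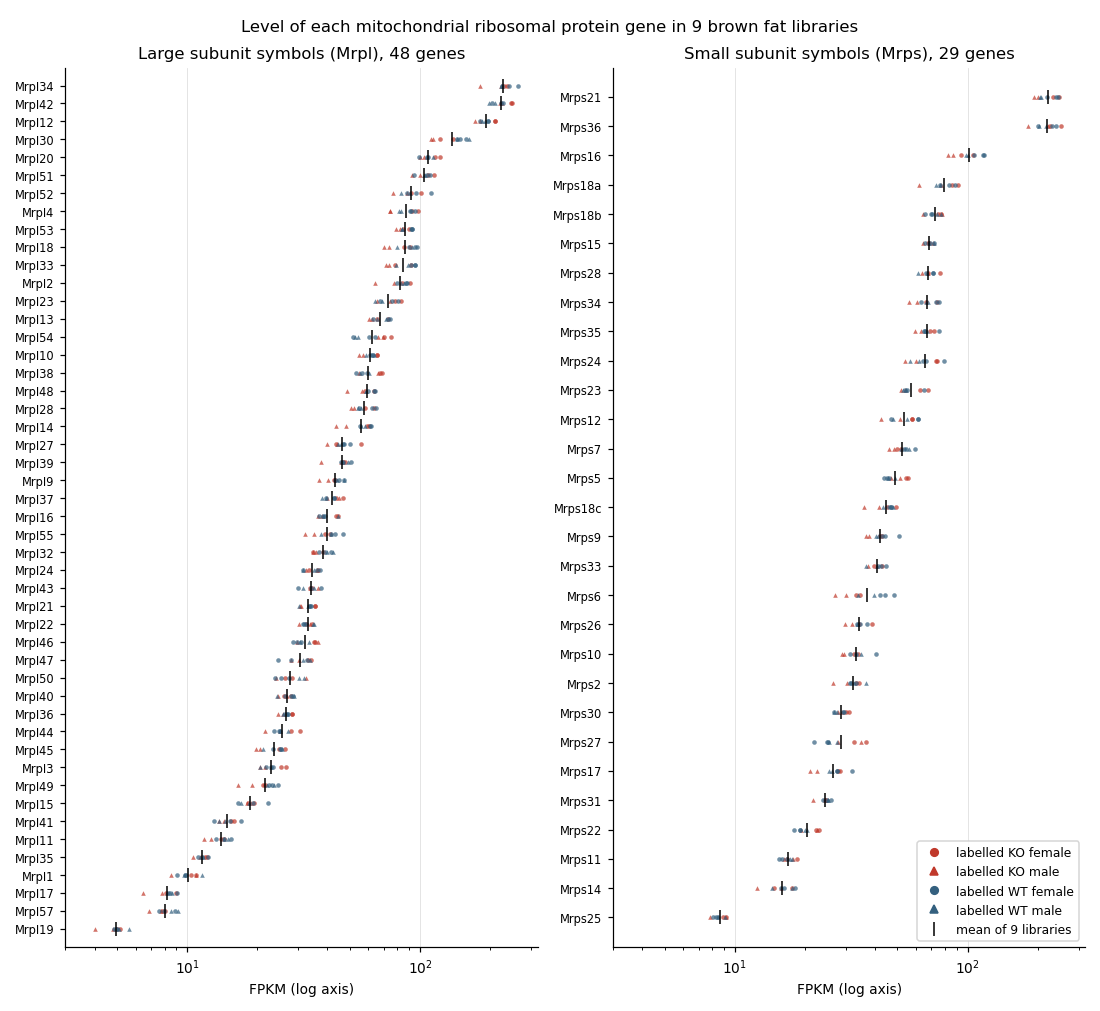
FPKM on a log axis (x axis) of each of 48 Mrpl genes (left) and 29 Mrps genes (right, y axes), with 1 symbol per library (red labelled KO, blue labelled WT, circles female, triangles male) and a black bar at the mean of 9 libraries. The libraries of a gene sit close together, while genes range from 4.94 FPKM (Mrpl19) to 228 FPKM (Mrpl34).

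Individual members varied little between animals. The SD of log2 FPKM over the 9 libraries had a median of 0.13 over members, 0.17 over genes with a mean above 10 FPKM and 0.29 over all tested genes. Covariation between members was moderate, with a median Pearson r of 0.389 over 2926 pairs, 81.6% of them above 0. Without KO male 1 the median was 0.276. Pairs within the large subunit (0.396), within the small subunit (0.346) and across subunits (0.396) had similar medians, whereas pairs of 83 cytosolic ribosomal protein genes had a median of 0.916. All pairs share the same 9 libraries, so these values are descriptions. Against the mean of all other members, 50 members had an r above 0.5, and 2 had an r below 0, Mrpl50 (-0.154, named after its value was seen) and Mrps27 (-0.0658).

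The tested genes outside the list most like the mean of the members over the 9 libraries were Ndufb11 (r = 0.970), a subunit of complex I, Cox7b (0.968), a subunit of cytochrome c oxidase, Mfsd7a (0.959), Nr2f6 (0.958), a nuclear receptor, and Atp5d (0.957), a subunit of ATP synthase. Without KO male 1 their r ran from 0.916 (Nr2f6) to 0.975 (Atp5d).

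The first comparison asked whether libraries labelled KO and WT differed in these genes, averaged over the sexes. Only 2 members passed, both lower in libraries labelled KO: Mrps6, a small subunit protein conserved from bacteria, and Mrpl30, a large subunit protein also conserved from bacteria. That is 2 of 77 members, where the same limma fit across all genes called 3.60% in either direction and 2.17% as lower. The other 75 members did not pass.

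Mrps6 measured 33.2 and 34.5 FPKM in females labelled KO, 26.9 and 30.1 in males labelled KO, 48.2, 42.0 and 44.3 in females labelled WT, and 34.0 and 39.5 in males labelled WT. Within each sex every library labelled KO was below every library labelled WT, and only KO female 2 lay above the lowest WT male. The means were 31.2 ± 3.40 FPKM (SD, n = 4) and 41.6 ± 5.33 FPKM (n = 5), a log2 difference of -0.38 (SE 0.08) with an adjusted p of 0.0451 in limma. The two-sided exact permutation test gave p = 0.0238.

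Slc5a3, a myo-inositol transporter gene that shares the exonic stretch with Mrps6, stood at 1.23 ± 0.20 and 1.98 ± 0.50 FPKM (log2 difference -0.62, limma adjusted p = 0.14). Leaving out single libraries ended the call of Mrps6 in 7 of 9 cases, KO male 1 (adjusted p = 0.0690), both KO females, the 3 WT females and WT male 2 among them (up to 0.171), and kept it without KO male 2 or WT male 1.

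Mrpl30 measured 122 and 138 FPKM in females labelled KO, 112 and 114 in males labelled KO, 148, 157 and 144 in females labelled WT, and 162 and 144 in males labelled WT. The highest library labelled KO was below the lowest labelled WT. The means were 121 ± 12.0 FPKM (SD, n = 4) and 151 ± 8.25 FPKM (n = 5), a log2 difference of -0.32 (SE 0.07) with an adjusted p of 0.0492 in limma. The two-sided exact permutation test gave p = 0.00794, the smallest that 126 assignments allow. Only groups without overlap can give this p, so it adds little to the order of the libraries. For 6.04% of all genes the libraries labelled KO were all below those labelled WT.

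Mitd1, which starts next to Mrpl30 on the opposite strand, stood at 3.73 ± 1.12 and 3.73 ± 0.52 FPKM (log2 difference -0.05, limma adjusted p = 0.95). The call of Mrpl30 was lost whichever of the 9 libraries was left out, with adjusted p from 0.0537 without KO male 2 to 0.185 without KO female 1.

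Of the members that did not pass, Mrpl54 and Mrps27 had the largest positive differences. Mrpl54, a protein particular to mitochondrial ribosomes, measured 65.96 to 75.4 FPKM in libraries labelled KO and 51.3 to 63.9 FPKM in those labelled WT, without overlap (log2 difference 0.33, SE 0.08, limma adjusted p = 0.0622). Mrps27, an RNA-binding protein of the pentatricopeptide repeat family, measured 27.7 to 36.5 FPKM in libraries labelled KO and 21.9 to 27.4 FPKM in those labelled WT (log2 difference 0.38, SE 0.09, limma adjusted p = 0.0660). The lowest of its libraries labelled KO was KO male 1, and without that library its adjusted p was 0.0445.

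Ptcd2, the pentatricopeptide repeat gene that starts next to Mrps27, was at 22.5 ± 0.75 and 20.4 ± 2.68 FPKM (log2 difference 0.12, limma adjusted p = 0.45). Next in order of p were Mrpl49 (log2 difference -0.24, SE 0.07, adjusted p = 0.0983), Mrps16 (-0.21, SE 0.06, adjusted p = 0.109) and Mrps5 (0.18, SE 0.06, adjusted p = 0.133), the last a conserved protein at the entry of the messenger channel. Libraries labelled KO were all above those labelled WT for 2 members, Mrpl54 and Mrps27, where 3.03% of all genes were so ordered. They were all below for 3, Mrpl30, Mrpl49 and Mrps7, where 6.04% of all genes were.

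**Figure D3:**
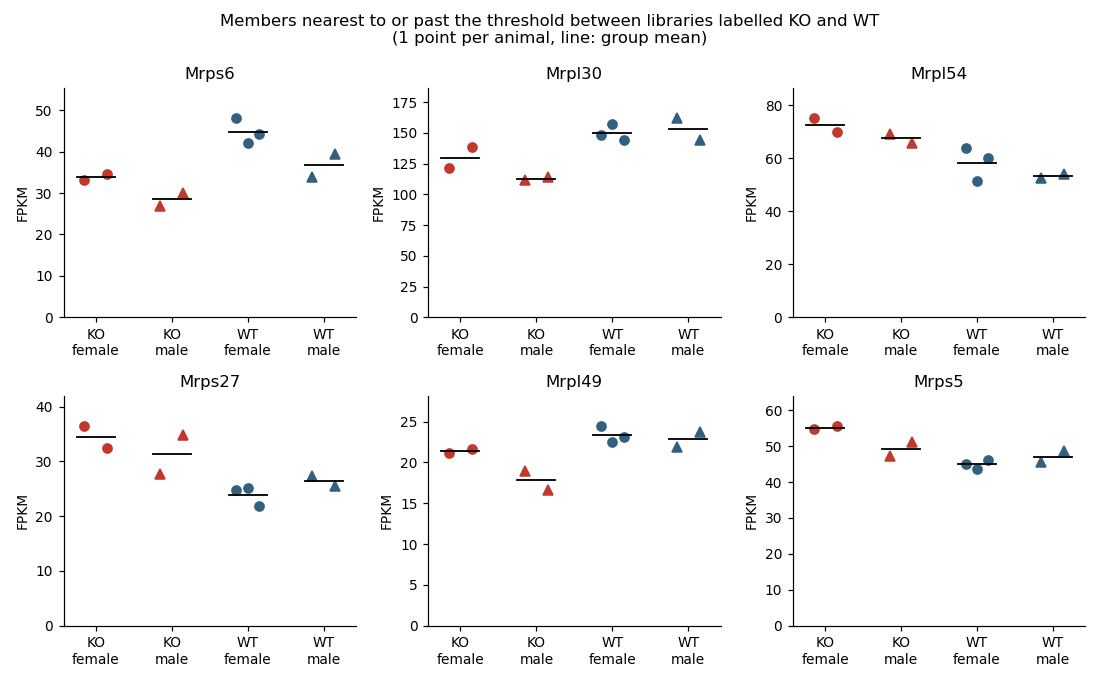
FPKM (y axes, from 0) of 6 members by labelled group (x axes), with 1 point per animal and a line at the group mean. Mrps6 and Mrpl30 are lower in libraries labelled KO (31.2 against 41.6 and 121 against 151 FPKM on average), Mrpl54 and Mrps27 show the opposite order, and Mrpl49 and Mrps5 differ less.

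Taken over all 77 genes, the log2 difference had a median of -0.03, with 30 members (39.0%) above 0. Over all tested genes the median was -0.07, with 37.5% above 0. The large (-0.03) and the small subunit (-0.03) had the same median. Its sign depended on the scaling between libraries, with a member median of 0.03 after median centring and 0.01 after quantile normalization. Of the members, 20.8% had an unadjusted p under 0.05 (16 genes, 5 higher and 11 lower), close to 20.2% of all genes, and after quantile normalization 10.4% of members and 18.5% of all genes did. With 1 library left out the member median stayed below 0 and ran from -0.0549 without KO male 2 to -0.0131 without KO male 1.

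The linear model of the study's methods, whose genotype term compares the labels in females, gave 3 members at an unadjusted p under 0.01, Mrps27, Mrps6 and Mrps5, where it gave 3.43% of all genes. With single libraries left out this count ran from 0 to 4. It was 0 without either KO female and 1 without WT female 1 or WT female 2.

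The second question was whether the labels differed within each sex. In females no member passed (limma, 0.0204% of all genes called), and the median log2 difference was 0.04 with 48 of 77 members above 0, beside -0.07 and 39.8% above 0 over all genes. In males no member passed either (0.0136% of all genes), and the median was -0.13 with 15 members above 0, beside -0.08 and 39.9% over all genes. The ordinary linear model with adjustment called 0 members in both. At an unadjusted p under 0.05, limma gave 8 members in females, 7 of them higher, and 12 in males, 1 of them higher, beside 12.7% and 16.6% of all genes.

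The members nearest to the threshold in females were Mrps27 (log2 difference 0.52, SE 0.13, adjusted p = 0.176), Mrps6 (-0.40, SE 0.11, adjusted p = 0.202), Mrps5 (0.30, SE 0.08, adjusted p = 0.203), Mrps22 (0.28, SE 0.09, adjusted p = 0.284) and Mrpl54 (0.32, SE 0.11, adjusted p = 0.287). In males they were Mrpl30 (-0.44, SE 0.10, adjusted p = 0.0998), Mrpl49 (-0.36, SE 0.10, adjusted p = 0.137), Mrpl14 (-0.32, SE 0.10, adjusted p = 0.150), Mrps6 (-0.36, SE 0.12, adjusted p = 0.169) and Mrpl54 (0.34, SE 0.12, adjusted p = 0.193). Mrps6 and Mrpl54 stand in both lists, and the difference between the sexes was 0.04 (SE 0.16) for Mrps6 and 0.03 (SE 0.16) for Mrpl54.

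Females labelled KO were all above females labelled WT for 25 members (13.8% of all genes) and all below for 7 (26.6% of all genes). In males the order was the reverse, with 5 members all above (10.8% of all genes) and 43 of 77 all below (28.7% of all genes). Without KO male 1 the median difference in males was -0.07, with 21 members above 0, while that of all genes was -0.22. In females the median was 0.0676 without WT female 1, 0.0637 without KO female 1 and 0.0196 without WT female 2. Median centring raised the differences in females by 0.11 for members and for all genes alike (member median 0.15, 69 above 0).

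**Figure D4:**
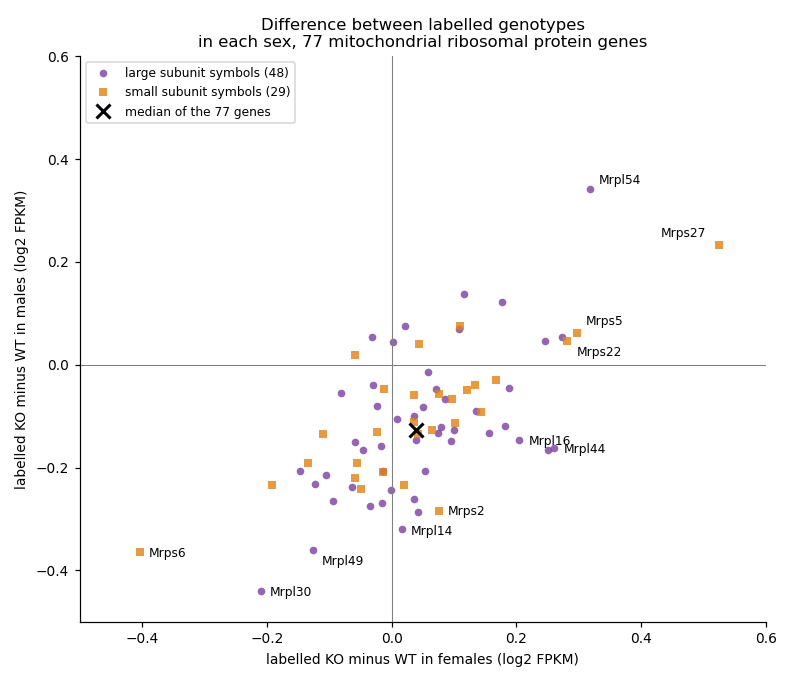
Log2 difference between labels in females (x axis) and in males (y axis) for each of 77 genes, with circles for the large and squares for the small subunit and a cross at the median of all members (0.04 and -0.13). The 2 subunits lie in the same cloud, Mrps6 and Mrpl30 fall at its lower left and Mrpl54 and Mrps27 at its upper right.

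The sign of the difference was positive in females and negative in males for 35 members, positive in both for 13, negative in both for 27 and negative in females only for 2. The genotype by sex term is the difference in males minus that in females. It tests whether these differences are unequal, not whether their signs are opposite. No member passed (limma, 0.00% of all genes called; ordinary linear model, 0), with 5 members at an unadjusted p under 0.05, all negative, beside 7.01% of all genes. The lowest p belonged to Mrpl44, which carries a ribonuclease fold and is particular to mitochondria (-0.42, SE 0.14, adjusted p = 0.663). Mrpl16 (-0.35), Mrpl14 (-0.34), Mrpl20 (-0.30) and Mrps2 (-0.36), all conserved from bacteria, followed with adjusted p up to 0.691. The median over members was -0.17, with 8 of 77 above 0, beside -0.01 and 48.7% above 0 over all genes. It was -0.09 after quantile normalization, with 18 above 0 and 0 members at an unadjusted p under 0.05, and median centring lowered it, and that of all genes, by 0.101. Without KO male 1 the medians of members and of all genes were -0.126 and -0.129. Females labelled KO were all above and males labelled KO all below their WT counterparts for 9 members (2.58% of all genes), Mrpl10, Mrpl12, Mrpl16, Mrpl19, Mrpl20, Mrpl22, Mrpl44, Mrpl47 and Mrps2.

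Mrpl44 measured 27.95 and 30.7 FPKM in females labelled KO, 24.8, 24.97 and 23.6 in females labelled WT, 21.7 and 25.03 in males labelled KO, and 25.1 and 27.1 in males labelled WT. The 2 females labelled KO were the highest of all 9 libraries, and KO male 1 was the lowest.

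The third question was whether males and females differed, averaged over the labels. No member passed (limma, 0.0136% of all genes called; ordinary linear model, 0). The median log2 difference, male minus female, was -0.12 with 12 of 77 members above 0, beside 0.01 and 51.5% above 0 over all genes. At an unadjusted p under 0.05 there were 20 members (26.0%), all of them lower in males, against 10.4% of all genes. After quantile normalization the member median was -0.08 and the share was 10.4% (8 members), the same as that of all genes. The large (-0.11) and the small subunit (-0.12) had similar medians. Without KO male 1 the member median was -0.10, with 13 above 0, beside -0.06 over all genes.

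Mrpl4 had the lowest p, with 98.0, 92.0, 91.3, 95.3 and 90.5 FPKM in females and 74.1, 74.7, 83.2 and 81.6 FPKM in males. The groups did not overlap, at 93.4 ± 3.13 FPKM (SD, n = 5) against 78.4 ± 4.66 FPKM (n = 4), a log2 difference of -0.26 (SE 0.05, adjusted p = 0.226). Mrps21 (-0.24, SE 0.06), Mrps17 (-0.26, SE 0.07), Mrps24 (-0.30, SE 0.08) and Mrps6 (-0.27, SE 0.08) followed, with adjusted p from 0.266 to 0.317. Males were all below females for 8 members (1.85% of all genes), which were Mrpl4, Mrpl21, Mrpl34, Mrpl53, Mrps9, Mrps17, Mrps21 and Mrps24, and all above for 0 (0.906% of all genes).

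Both subunits ranked the libraries in a similar way. The mean log2 level of members, against the mean of the 9 libraries, was -0.145 in KO male 1 and -0.09 in KO male 2, and 0.05 and 0.10 in the females labelled KO. In libraries labelled WT it ran from -0.01 to 0.08. KO male 1 held the lowest value of 33 members and KO male 2 that of 21, while WT female 1 held the highest value of 24. Cytosolic ribosomal protein genes did not share this order, with 0.53 in KO male 1 and -0.34 in KO male 2. The median over all tested genes, centred in the same way, was 0.0582 in KO male 1 and -0.175 in KO male 2. In WT female 1 it was 0.0986. The shares of all genes with their lowest or highest value in these libraries were not counted.

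**Figure D5:**
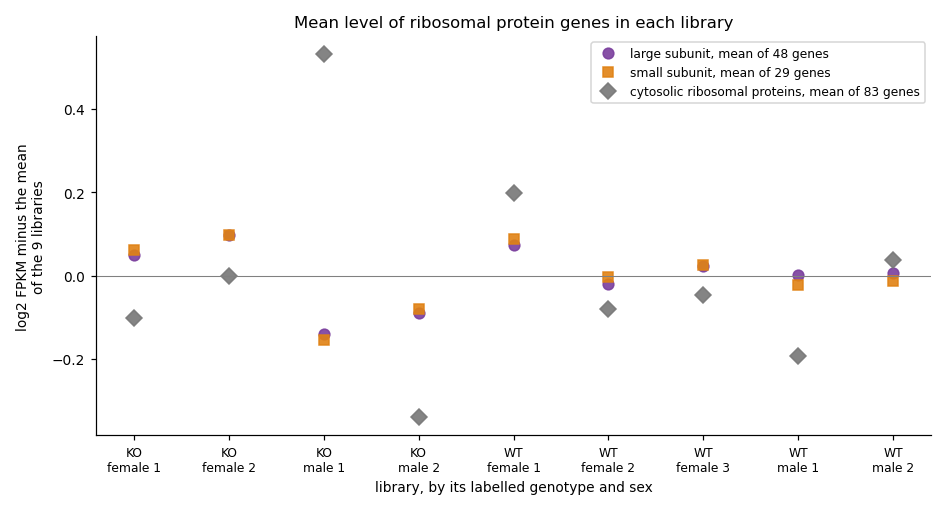
Mean log2 FPKM of large subunit, small subunit and cytosolic ribosomal protein genes in each library (x axis), as the difference from the mean of the 9 libraries (y axis). Both mitochondrial subunits sit together in every library and are lowest in the 2 males labelled KO, while the cytosolic genes are highest in KO male 1 (0.53) and lowest in KO male 2 (-0.34).

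Other genes of mitochondrial gene expression were read from 6 lists (87 genes), and none of them passed between the labels averaged over the sexes (limma). At an unadjusted p under 0.05 there were 12, of which 11 were higher in libraries labelled KO, a share of 13.8% beside 20.2% of all genes. The median log2 difference was 0.05 for 6 mitoribosome proteins with other names, 0.02 for 25 assembly and rRNA modification genes, 0.06 for 16 translation factors, 0.08 for 20 aminoacyl-tRNA synthetases, 0.10 for 9 genes of mitochondrial DNA transcription and replication and 0.07 for 11 nuclear regulators. In females 68 of the 87 differences were positive, and in males 53 were negative, beside 39.8% positive and 60.1% negative over all genes.

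Letm1, an inner membrane protein that binds mitochondrial ribosomes, came closest, at 101 ± 8.62 FPKM (SD, n = 4) in libraries labelled KO and 76.7 ± 9.25 FPKM (n = 5) in those labelled WT (log2 difference 0.38, limma adjusted p = 0.0610). The recycling factor Gfm2 (0.23, adjusted p = 0.126), the elongation factor Tufm (0.19, adjusted p = 0.153) and the synthetase Yars2 (0.26, adjusted p = 0.097) had positive differences as well. Lars2, a synthetase, reached 1710 FPKM in KO male 2 against 429 to 805 FPKM in the other libraries. Mtg1, a GTPase of large subunit assembly, had a negative one (-0.19, adjusted p = 0.123). Among the regulators, the coactivator Ppargc1a (0.49, adjusted p = 0.442) and the factor Nrf1 (0.33, adjusted p = 0.482) did not pass.

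Markers of cell types differed more than the members between the labels. Brown adipocyte markers summed to 4570 to 6040 FPKM in libraries labelled KO and 4320 to 5500 FPKM in those labelled WT. Their median log2 difference was -0.13, with 3 of 9 above 0 and 0 called (limma). At an unadjusted p under 0.05 there were 5, of which 3 were higher and 2 lower in libraries labelled KO. The median was 0.16 in females and -0.245 in males. Of 10 muscle markers 3 were called higher (Acta1, Myh1 and Mylpf, median 2.28 on the log2 scale). Of 7 fibroblast markers 4 were called lower (Col1a1, Col1a2, Col3a1 and Lum, median -1.03), with Lep among 6 white adipocyte markers (-3.21, median of the list -1.11) and Cd163 among 5 macrophage markers (-0.92, median -0.49). Endothelial markers (median -0.35), lymphocyte markers (1.32) and markers of dividing cells (-0.66, with Bub1 and Aurkb at 0 in some libraries) held no called gene. The lymphocyte median was -1.07 in females and 3.27 in males, and that of dividing cells was -1.88 and 0.759. The macrophage median was -0.968 in females and -0.0184 in males. In KO male 1 the lymphocyte and dividing cell markers summed to 259 and 6.95 FPKM, against at most 5.31 and 1.18 FPKM in the other libraries. Macrophage markers summed to 48.9 FPKM in KO male 1, against at most 28.0 FPKM in the other libraries. The part of these cell types in the values of the 77 genes was not tested.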

How the data were processed

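The values are FPKM per gene symbol that the authors deposited, 1 table for each of 9 libraries from poly A+ RNA. Per the submitters' processing notes they used bcl2fastq 1.8.4, TopHat2 2.0.11, Bowtie and mm10. How Bowtie gave abundances, and whether strand was used, is not given in the sources used here. Fragment counts are not used here, so no depth or counting interval is given. Dates stand for 25 symbols.

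Genes above 0 in all 9 libraries (14675) were taken as log2 FPKM with no pseudocount and fitted by limma 3.58.1 (R 4.3.3) with a mean per group and a mean-variance trend, with Benjamini-Hochberg adjustment over all genes at 0.05. The ordinary linear model follows the study's methods. Exact permutation tests used all 126 assignments of 9 libraries to groups of 4 and 5, without regard to sex. In simulated data 50.5% of 200 genes shifted by 1 on the log2 scale were recovered (KO minus WT over both sexes, 14675 genes). Members differed by -0.384 to 0.379 in that contrast, so the share does not apply to shifts of their size.

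The members, lists and tests were chosen with earlier results of these data known. Members named are those called, the 5 of lowest p per contrast, the 3 highest and 3 lowest per subunit, and those whose symbol and structure differ. From each list, genes called or among the 3 of lowest p were named. Mrps7, Mrps9, Mrps10, Mrps12, Mrps33, Mrpl10, Mrpl21, Mrpl22, Mrpl23, Mrpl27, Mrpl33, Mrpl36, Mrpl41, Mrpl43, Mrpl46, Mrpl47, Mrpl50, Mrpl53, Igf1 and the neighbouring genes were named after their values were seen. Calculations in Python 3.11.15 used pandas 2.3.3, numpy 2.4.6 and scipy 1.17.1.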

Additional observations from a re-analysis of the deposited data

Results flagged for a closer look

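In libraries labelled KO, Mrps22 of KO male 1 stood apart from the others, at 19.4 FPKM against 22.4 to 23.0 FPKM. On the log2 scale the gap was 0.851 of the group's range. This was 1 of 64 groups examined (31 named members and the median of all members, in libraries labelled KO and WT), and chance sets apart about 1 in 20.

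For 6 named members, of 9 among all 77 (the others were Mrpl10, Mrpl22 and Mrpl47; 2.58% of all genes), every female labelled KO was above every female labelled WT while every male labelled KO was below every male labelled WT. The difference in males minus that in females, on the log2 scale, was -0.42 for Mrpl44, -0.36 for Mrps2, -0.35 for Mrpl16, -0.33 for Mrpl19, -0.30 for Mrpl20 and -0.23 for Mrpl12. None passed the test of that difference (limma adjusted p 0.663 to 0.718).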

How the results depend on the processing

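The count of 2 members called between labels over both sexes was 2 with either pseudocount and 3 with a mean of at least 1 FPKM, which added Mrpl54. It was 0 with no filter, with median centring, without the mean-variance trend and in the ordinary linear model, 1 (Mrpl54) with quantile normalization, and 0 to 1 with a library left out. Mrps6 was called in 6 of 18 settings, Mrpl30 in 4, Mrpl54 in 2 and Mrps27 in 1, and none of these differences changed sign. Adjusted p in limma ran from 0.0334 to 0.249 for Mrps6 and 0.0401 to 0.412 for Mrpl30. It ran from 0.0426 to 0.217 for Mrpl54 and 0.0445 to 0.231 for Mrps27. These ranges cover 15 alternatives and leave out the fit without the mean-variance trend and the ordinary linear model. The cause of the changes in calls was not tested. The other contrasts called 0 members in all 17 alternatives. The linear model of the methods gave 0 members with median centring and 0 to 4 with a library left out. Of the median member differences, those with median centring were 0.0283 over both sexes, 0.15 in females and -0.17 for sex, and quantile normalization gave -0.0759 for sex. With a library left out they ran from -0.0549 to -0.0131 over both sexes, 0.0196 to 0.0676 in females and -0.128 to -0.0954 for sex. In males the median was -0.0440 with quantile normalization and -0.136 to -0.0694 with a library left out. Large minus small subunit stayed below 0 throughout (-0.17 to -0.08). No paired analysis was made, because each animal has its own number and the labels do not give its litter. Any litter structure among these littermates was therefore not modelled. Fragment depth is unknown, so the precision of single values cannot be stated.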
